A study of Mus musculus with 10 samples.

Results

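The genes described here are 10 mouse milk protein genes: the caseins Csn1s1, Csn2, Csn1s2a, Csn1s2b and Csn3, the whey proteins Wap, Lalba and Glycam1, and the milk fat globule proteins Btn1a1 and Xdh. All 10 of them were found among the 55487 genes of the count tables. They were followed across 10 RNA-sequencing libraries of the virgin mouse mammary gland as read counts, as CPM (counts scaled to a common library size) and as ratios to Krt18, a keratin of luminal epithelial cells. The members were chosen on measured values, mainly the casein counts of the macrophage libraries. For the members, the macrophage contrast and the Krt18 ratios are therefore a description, and no test result is read from them. For genes of other lists the macrophage test is reported. The genotype contrast in epithelium was tested over all genes, and its values were also known when the list was made.

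Libraries were made from mammary epithelial cells (MECs), obtained by depleting other lineages, or from mammary gland macrophages, enriched by positive selection for F4/80. WT mice were Csf1r-Cre negative and Cebpb fl/fl, and CebpbΔM mice were Csf1r-Cre positive and Cebpb fl/fl, so the floxed Cebpb allele was shared by both genotypes. All were 10-week-old females on the BALB/c background at diestrus, with no treatment. Csf1r drives Cre in myeloid cells, hence the MECs of CebpbΔM mice are epithelium from animals whose deletion is in another cell type, although the labels give the genotype of both cell types as a C/EBPb knockdown. There were 2 WT (replicates 1 and 3) and 2 CebpbΔM MEC libraries (1 and 3), and 2 WT (4 and 5) and 4 CebpbΔM macrophage libraries (4, 5, 6 and 7). The sources used here do not say whether a library was 1 mouse or a pool, so p-values measure the spread between these libraries.

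Caseins are secreted by alveolar cells of the mammary epithelium and pack calcium phosphate into micelles, in which kappa-casein, the product of Csn3, caps the surface. Whey proteins stay in solution, and butyrophilin and xanthine oxidoreductase, the products of Btn1a1 and Xdh, take part in enveloping fat droplets in membrane as they leave the cell. Milk protein genes respond to prolactin through JAK2 and STAT5 together with glucocorticoid receptor, C/EBPβ and ELF5, and in the virgin gland most of them are expressed weakly until pregnancy.

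The total count per library was 25310926 to 27008166 in MECs and 16935000 to 20174722 in macrophages. A count of 0 therefore allows up to 3 counts, or 0.111 to 0.119 CPM in MECs and 0.149 to 0.177 CPM in macrophages (counting error only). Cebpb, the targeted gene, gave 25 and 28 counts in WT MECs, 69 and 42 in CebpbΔM MECs, 13 and 15 in WT macrophages and 16, 13, 5 and 4 in CebpbΔM macrophages (replicates 4 to 7), and its exons overlap Tmem189 on the other strand, so at these counts it gave no firm check of the labels. Macrophage libraries also carried epithelial RNA: the summed CPM of 8 luminal keratin, claudin and adhesion genes, with all 8 detected in every library, was 10344 to 10461 in WT and 5416 to 6902 in CebpbΔM macrophages, against 28334 to 35483 in MECs. In these bulk libraries, fewer cells of a type and less RNA per cell cannot be told apart.

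The casein genes sit together on chromosome 5 (GRCm38, Ensembl release 100). Csn1s1 lies at chr5:87666208-87682578 on the plus strand, Csn2 at chr5:87692624-87699630 on the minus strand, Csn1s2a at chr5:87774567-87788797, Csn1s2b at chr5:87808082-87824426 and Csn3 at chr5:87925579-87932665, the last 3 on the plus strand. The count tables place 14 genes in this stretch of 313 kb, and 5 of them exceeded 3 counts in any library: Csn1s1, Csn2, Csn1s2a, Csn3 and Prr27. Prr27, a proline-rich protein gene next to Csn1s2b, had 6 counts in CebpbΔM macrophage library 4 and 0 in the other 9 libraries. Of the rest, Odam, which encodes an ameloblast-associated protein, reached 3 counts in a MEC library and was at 0 in all 6 macrophage libraries. Gm42845 and BC037156 reached 2 and 3 counts, and Gm25066, Gm24314, Gm42794, Gm7337 and 1700066N21Rik were at 0 in every library. Csn1s2b itself, an alpha-S2-type casein gene in the middle of the cluster, had 0 to 2 counts in each library.

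The first 45 coding bases of the 5 caseins, taken from GENCODE M21 transcripts and covering the start of the signal peptide, are shown because they separate the calcium-sensitive caseins from kappa-casein. Capitals mark the 28 positions that are the same in Csn1s1, Csn2, Csn1s2a and Csn1s2b.
Csn1s1: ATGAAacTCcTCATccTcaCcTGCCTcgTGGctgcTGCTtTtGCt
Csn2: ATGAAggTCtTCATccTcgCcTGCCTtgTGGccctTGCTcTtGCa
Csn1s2a: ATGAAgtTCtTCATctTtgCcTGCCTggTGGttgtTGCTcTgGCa
Csn1s2b: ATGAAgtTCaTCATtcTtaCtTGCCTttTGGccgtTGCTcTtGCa
Csn3: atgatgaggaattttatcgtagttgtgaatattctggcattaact
Between the calcium-sensitive caseins 33 to 37 of the 45 bases were the same, the highest being 82.2% for Csn2 with either of the Csn1s2 genes. Csn3 shared 15 to 17 of 45 bases with the others. Over whole transcripts no stretch of 50 bases was shared between any casein and another, and no exon of a member overlapped an exon of another gene on either strand.

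RefSeq promoters (GRCm38.p6) were found for 6 of the 10 members: Csn1s1, Csn2, Csn1s2a, Wap, Lalba and Glycam1. The 250 bases before the start of the 3 caseins whose counts were highest in the same libraries are shown, at chr5:87665958-87666207 (plus strand) for Csn1s1, chr5:87699426-87699675 (minus strand) for Csn2 and chr5:87774200-87774449 (plus strand) for Csn1s2a, with capitals marking a STAT5-type match (TTCNNNGAA).
Csn1s1: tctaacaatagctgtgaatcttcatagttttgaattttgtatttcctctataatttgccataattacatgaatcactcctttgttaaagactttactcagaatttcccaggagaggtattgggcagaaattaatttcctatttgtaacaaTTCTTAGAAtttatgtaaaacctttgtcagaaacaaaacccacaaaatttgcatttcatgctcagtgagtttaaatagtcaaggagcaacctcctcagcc
Csn2: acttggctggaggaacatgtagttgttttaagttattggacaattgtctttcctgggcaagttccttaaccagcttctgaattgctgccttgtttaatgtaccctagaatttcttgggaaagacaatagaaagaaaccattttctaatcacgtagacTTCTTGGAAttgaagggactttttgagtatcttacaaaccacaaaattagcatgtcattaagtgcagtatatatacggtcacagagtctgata
Csn1s2a: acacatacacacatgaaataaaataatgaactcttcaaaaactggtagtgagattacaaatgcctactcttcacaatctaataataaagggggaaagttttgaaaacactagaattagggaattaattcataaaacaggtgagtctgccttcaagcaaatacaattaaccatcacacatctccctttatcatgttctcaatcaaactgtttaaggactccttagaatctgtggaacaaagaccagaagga
The motif matched Csn1s1 at bases -100 to -92 (TTCTTAGAA), Csn2 at -93 to -85 (TTCTTGGAA) and Glycam1 at -145 to -137 (TTCCCAGAA), counted back from the RefSeq start, and it did not match Csn1s2a, Wap or Lalba in this window. It reads the same on both strands and occurs in 7.02% of 32851 mouse promoter windows of the same length. A C/EBP-type motif (TTGCNNAA, either strand, in 9.56% of windows) matched 0 of the 6. An NF1-type half-site (TTGGCA, either strand, in 12.3%) matched Lalba and Glycam1, and in Glycam1 it does not overlap the STAT5-type match. These letters describe the windows and were not tied to the counts.

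Csn1s1, which encodes alpha-S1-casein, was low in 8 of the 10 libraries and high in 2. Its level was 6.61 and 3.88 CPM in WT MECs and 13.0 and 6.45 CPM in CebpbΔM MECs (replicates 1 and 3). In WT macrophages it was 2.93 and 2.99 CPM (replicates 4 and 5), and in CebpbΔM macrophages 4, 5, 6 and 7 it was 289, 44.5, 3.16 and 0.186 CPM. The CebpbΔM macrophage libraries thus ran from above every MEC library to below every other library, and the genotypes overlapped. Means were 84.1 ± 138 (SD, n = 4) in CebpbΔM and 2.96 ± 0.0398 (SD, n = 2) in WT macrophages, an SD larger than the mean in the first group. The fitted log2 fold change was 4.83 ± 2.26 (SE), and 2.43 without library 4.

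Csn2, the beta-casein gene, ran from 0 to 4685 counts. It had 20 and 16 counts in WT MECs and 117 and 28 in CebpbΔM MECs, which is 0.760, 0.621, 4.49 and 1.06 CPM. WT macrophages had 0 and 1 counts, and CebpbΔM macrophages 4 to 7 had 4685, 344, 10 and 0 counts, or 245, 17.2, 0.555 and 0 CPM. So 3 of the 4 CebpbΔM macrophage libraries lay above both WT libraries, and library 7 was level with WT library 4 at 0 counts. Over pooled counts relative to library totals, 5039 against 1, the ratio was 2627 (95% exact interval 471 to 103762, counting error only). Without CebpbΔM library 4 the pooled counts were 354 against 1 and the ratio 245 (43.7 to 9699), and neither without it nor without library 5 did Csn2 pass the filter on low counts.

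Csn1s2a, an alpha-S2-type casein gene, followed the same libraries at lower counts. It had 12 and 4 counts in WT MECs, 43 and 9 in CebpbΔM MECs, 0 and 0 in WT macrophages and 325, 54, 6 and 0 in CebpbΔM macrophages 4 to 7. On pooled counts, 385 against 0, the ratio to WT was at least 66.9 with the WT group set to 3 counts. Without library 4 (60 against 0) it was at least 13.8, and the gene no longer passed the filter, as without library 5. These bounds cover counting error only and not the spread between libraries. Library 7 had 0 counts, as both WT libraries had. The order of the 4 CebpbΔM macrophage libraries was the same for Csn1s1, Csn2 and Csn1s2a. Their means without library 4 were 15.9 ± 24.8, 5.93 ± 9.80 and 1.01 ± 1.48 CPM (SD, n = 3).

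Csn3 was the most abundant casein and the most abundant member in every group per kb of gene length. It stood at 512 and 380 CPM in WT MECs, 808 and 249 CPM in CebpbΔM MECs, 122 and 79.1 CPM in WT macrophages and 236, 63.3, 97.2 and 61.9 CPM in CebpbΔM macrophages 4 to 7. Both genotypes overlapped in both cell types. In macrophages the log2 fold change was 0.19 ± 0.54 (SE), and without library 4 the CebpbΔM mean of 74.1 ± 20.0 CPM (SD, n = 3) lay below the WT mean of 100.4 ± 30.2 CPM (SD, n = 2).

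The make-up of the casein counts set 2 libraries apart. Csn3 made up 98.5% and 98.8% of casein counts in WT MECs, 97.7% and 96.9% in CebpbΔM MECs and 97.7% and 96.3% in WT macrophages. In CebpbΔM macrophages 4 and 5 it made up 30.0% (95% exact binomial interval 29.2 to 30.7) and 49.6% (47.6 to 51.5), and in 6 and 7 it made up 95.9% (94.9 to 96.8) and 99.7% (99.1 to 99.9). Csn1s1 supplied 36.7% and 34.8% of casein counts in libraries 4 and 5, against 0.299% to 3.64% in the other 8. Csn2 supplied 31.2% and 13.5%, against 0% to 0.548% elsewhere. Csn1s2a supplied 2.16% and 2.12% in libraries 4 and 5. The intervals cover counting error within a library and not the spread between libraries, so they do not test one library against another.

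**Figure D1:**
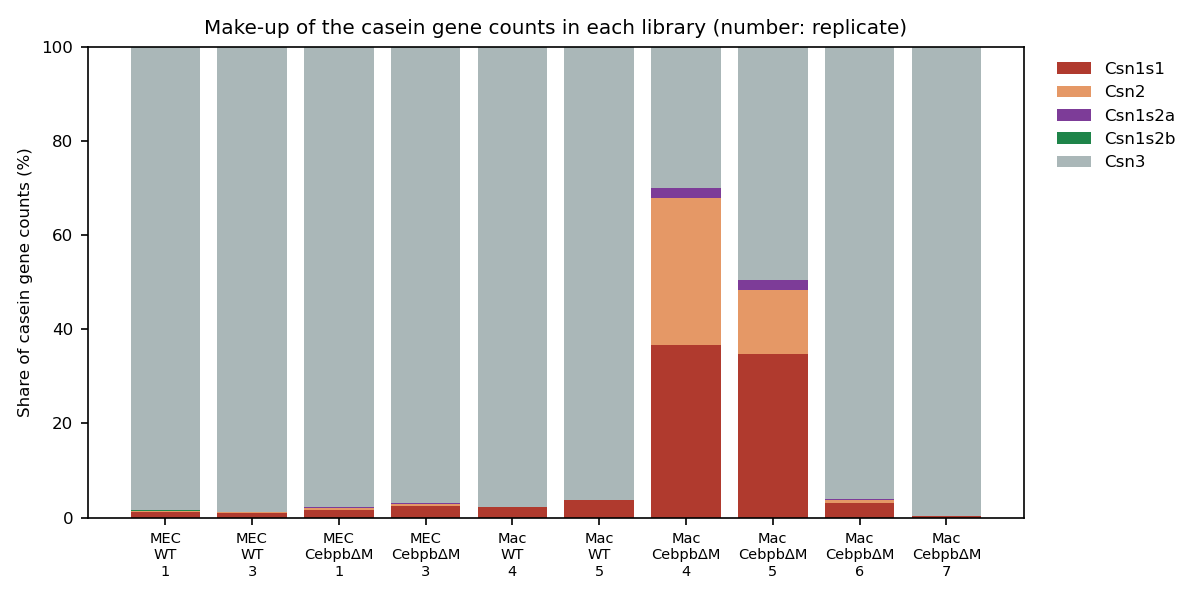
Stacked bars give the share (%) of the counts of the 5 casein genes that came from each gene, with one bar per library and the replicate number under it. Csn3 fills at least 95.9% of the bar in 8 libraries and 30.0% and 49.6% in CebpbΔM macrophage libraries 4 and 5, where Csn1s1 and Csn2 take up most of the rest.

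Among whey protein genes, Lalba, whose product alpha-lactalbumin is the regulatory subunit of lactose synthase, was the best measured. It is at chr15:98480400-98482721 on the minus strand. It gave 8.48 and 7.91 CPM in WT MECs and 8.60 and 9.98 CPM in CebpbΔM MECs, so it varied little in epithelium. In macrophages it gave 0.523 and 0.697 CPM in WT (10 and 14 counts) and 4.87, 1.75, 9.26 and 1.42 CPM in CebpbΔM libraries 4 to 7. All 4 CebpbΔM macrophage libraries lay above both WT libraries, with library 6 and not library 4 the highest. Pooled counts were 318 against 24, a ratio of 6.91 (4.56 to 10.9), 6.48 (4.25 to 10.3) without library 4 and 4.42 (2.86 to 7.11) without library 6, which held 167 of the 318 counts.

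Glycam1, a mucin-like glycoprotein of milk and of high endothelial venules (chr15:103562759-103565081, minus strand), gave 1 and 0 counts in WT MECs, 2 and 4 in CebpbΔM MECs, 0 and 0 in WT macrophages and 24, 6, 64 and 1 in CebpbΔM macrophages 4 to 7. Like Lalba it was highest in library 6. The pooled 95 counts against 0 put it at least 16.5-fold higher in CebpbΔM macrophages, a bound that was 16.4-fold without library 4 and 7.26-fold without library 6 (31 counts against 0), and without either library the gene no longer passed the filter on low counts. Wap, whey acidic protein (chr11:6635482-6638637, minus strand), stayed at 0 to 12 counts in every library. It had 9 and 4 counts in WT MECs, 12 and 1 in CebpbΔM MECs, 1 and 0 in WT macrophages and 5, 1, 4 and 1 in CebpbΔM macrophages, too few to tell the groups apart.

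The fat globule genes were detected in all 10 libraries. Btn1a1 (chr13:23456992-23465901, minus strand) gave 46.4 and 52.7 CPM in WT MECs and 48.5 and 30.5 CPM in CebpbΔM MECs. WT macrophages 4 and 5 differed from each other, at 3.35 and 17.0 CPM, and CebpbΔM macrophages 4 to 7 gave 61.4, 16.5, 17.4 and 15.03 CPM. Library 4 was again the highest, and without it the CebpbΔM mean was 16.3 ± 1.20 CPM (SD, n = 3), close to WT library 5. Leaving out WT library 5 raised the fitted log2 fold change from 1.44 to 3.04, so this value rests on single libraries in both groups.

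Xdh (chr17:73883895-73950196, minus strand) was the only member with a higher mean CPM in macrophage than in MEC libraries of WT mice. It gave 29.4 and 20.6 CPM in WT MECs, 19.7 and 16.1 CPM in CebpbΔM MECs, 36.2 and 62.0 CPM in WT macrophages and 56.0, 46.6, 72.4 and 58.2 CPM in CebpbΔM macrophages 4 to 7. Its macrophage genotypes overlapped, with a log2 fold change of 0.25 ± 0.26 (SE). Xanthine oxidoreductase is also a purine-degrading enzyme of many cell types, and its gene did not follow the libraries in which Csn2 was high.

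**Figure D2:**
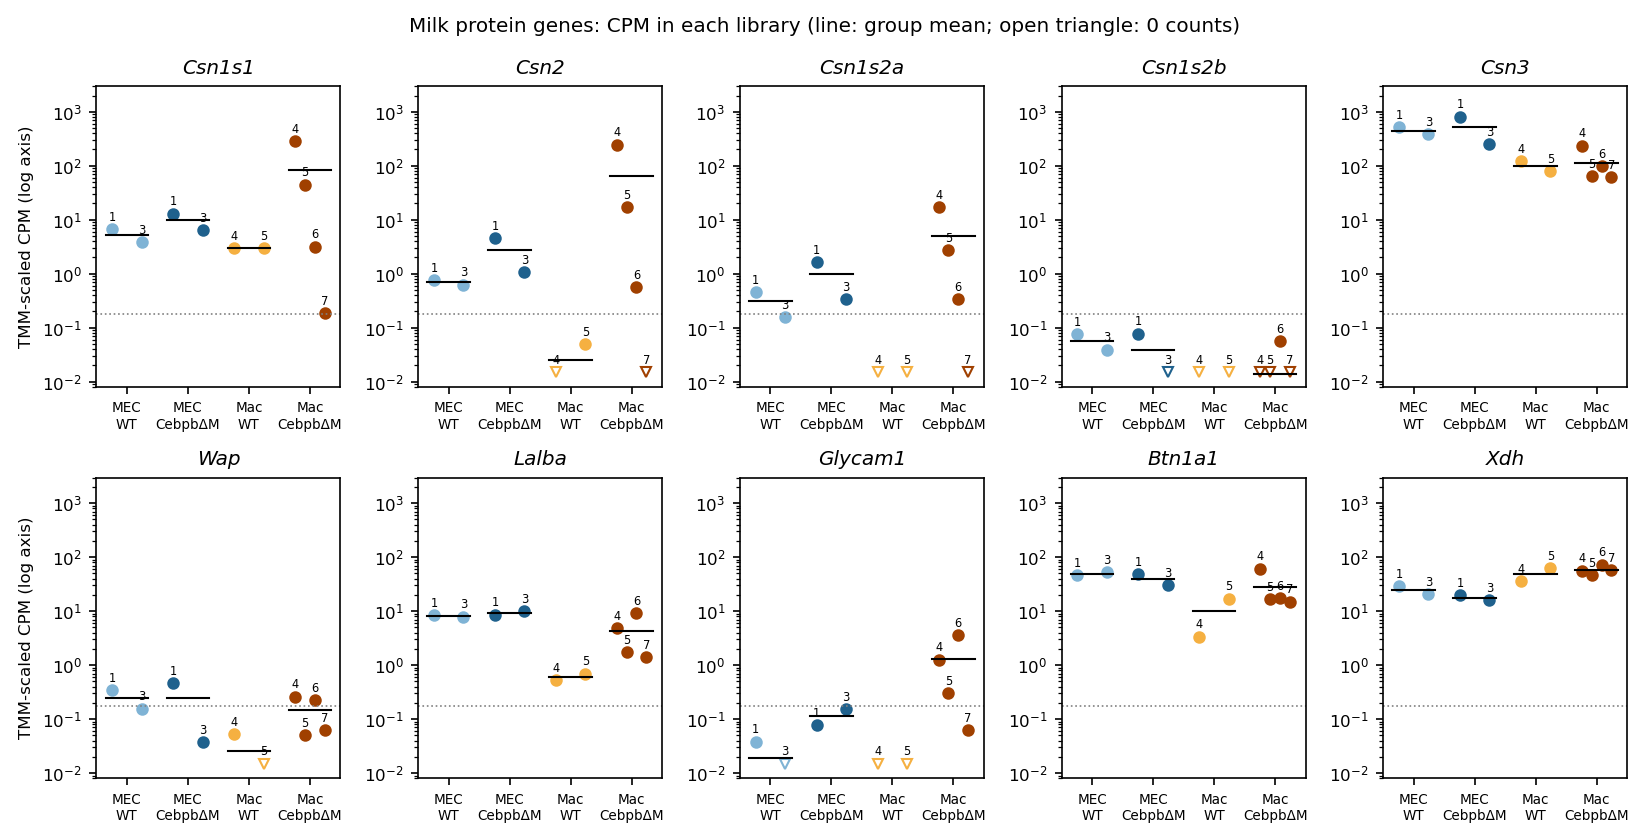
Each panel plots 1 member on a log axis of TMM-scaled CPM, with a point per library (small number: replicate), a line at the group mean, an open triangle for 0 counts and a dotted line at the highest detection limit of 3 counts (0.177 CPM). Csn1s1, Csn2 and Csn1s2a run from their highest values in CebpbΔM macrophage library 4 to their lowest of that group in library 7, while Xdh stays between 46.6 and 72.4 CPM in them.

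Per kb of gene length, the order of mean levels in WT MECs was Csn3 (107 CPM per kb), Btn1a1 (12.03), Lalba (10.6), Xdh (2.73), Csn1s1 (0.840), Wap (0.247), Csn2 (0.0997), Csn1s2a (0.0872), Csn1s2b (0.0135) and Glycam1 (0.00891). The pairs Btn1a1 and Lalba, Csn2 and Csn1s2a, and Csn1s2b and Glycam1 lay within 1 SD of each other there (n = 2). In CebpbΔM MECs the first 3 were Csn3 (127), Lalba (12.05) and Btn1a1 (9.59), and Csn2 held rank 6 (0.401). In WT macrophages they were Csn3 (24.2), Xdh (5.35) and Btn1a1 (2.47), with Lalba at 0.792 and Csn1s1 at 0.474. In CebpbΔM macrophages Csn1s1 (13.5) and Csn2 (9.49) stood directly behind Csn3 (27.6), but each of the first 8 members lay within 1 SD of the next (n = 4). The gene lengths of the count tables merge all annotated exons, 6926 bases for Csn2 against 1329 for the transcript with its longest coding sequence, so absolute levels per kb of the caseins read low on this scale.

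The macrophage contrast tested 8 of the 10 members, and Wap and Csn1s2b did not pass the filter of more than 1 CPM in at least 2 libraries. Csn2, Csn1s2a, Glycam1 and Lalba passed it only through CebpbΔM libraries, with both WT libraries under 1 CPM, so a higher value there was built in. All 8 had a log2 fold change above 0, with a median of 3.82 beside 0.0040 over the 17772 genes tested. With edgeR's quasi-likelihood test 0 of the 17772 genes (0%) reached an adjusted p of 0.05, against 1534 at an unadjusted p under 0.05, 138 by the likelihood ratio test and 201 by DESeq2. Groups did not overlap, with CebpbΔM above WT, for 2 members (Lalba and Glycam1), where 9.67% of all genes did so, and for 0 members in the other direction, where 9.08% did. This contrast chose members, so nothing is read from these counts.

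Counts relative to Krt18 set the members against the luminal signal of each library. Krt18 itself was 7096 and 9512 CPM in WT MECs, 8477 and 7521 CPM in CebpbΔM MECs, 2800 and 2673 CPM in WT macrophages and 1567, 1329, 1523 and 1771 CPM in CebpbΔM macrophages 4 to 7, so the denominator was lower in macrophage than in MEC libraries, and lower in CebpbΔM than in WT macrophages in every library. In WT mice 2 of 10 members, Xdh and Csn1s1, had a higher mean ratio in macrophage than in MEC libraries, where 93.7% of 18201 genes tested in either cell type did. In CebpbΔM mice all 10 did, where 98.1% of these genes did, so this count is near the background and is no result about the members, and the ratios of Csn1s2b rested on at most 2 counts a library. Ratios did not overlap between the cell types for 3 members in CebpbΔM mice (Glycam1, Btn1a1 and Xdh, all higher in macrophages), where 88.9% of these genes were higher and 0.643% lower without overlap. In WT mice they did not overlap for 6, with a count of 0 taken as 0. Of these, Xdh and Csn1s1 were higher and Csn2, Csn1s2a, Csn1s2b and Lalba lower in macrophages. Of the genes tested in either cell type, 83.8% were higher and 3.23% lower without overlap. Csn1s2a, Csn1s2b and Glycam1 had 0 counts in both WT macrophage libraries. A 0 allows up to 3 counts, so whether their ratios were lower than in WT MECs was not settled. These shares are descriptions, since macrophage values chose the members.

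Counts of Csn2 per 1000 Krt18 counts were 0.107 and 0.0653 in WT MECs, 0.530 and 0.141 in CebpbΔM MECs, 0 and 0.0186 in WT macrophages and 157, 13.0, 0.364 and 0 in CebpbΔM macrophages 4 to 7. CebpbΔM macrophages 4 and 5 thus held more Csn2 per Krt18 than any MEC library, and library 7 had 0 Csn2 counts. For Csn1s1 the corresponding values were 0.932 and 0.408, 1.53 and 0.857, 1.05 and 1.12, and 184, 33.5, 2.08 and 0.105. WT macrophages lay just above WT MECs for this gene and within the range of CebpbΔM MECs.

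Csn3 gave 72.2 and 40.0 counts per 1000 Krt18 counts in WT MECs, 95.4 and 33.1 in CebpbΔM MECs, 43.5 and 29.6 in WT macrophages and 150, 47.6, 63.8 and 34.9 in CebpbΔM macrophages. Its ratios overlapped between the cell types in both genotypes, with group means of 56.1 ± 22.8, 64.2 ± 44.0, 36.5 ± 9.85 and 74.2 ± 52.2 (SD). Lalba gave 1.19 and 0.832 in WT MECs against 0.187 and 0.261 in WT macrophages, which was lower in both, and 1.01 and 1.33 in CebpbΔM MECs against 3.11, 1.32, 6.08 and 0.803 in CebpbΔM macrophages, which overlapped. Xdh was higher in macrophages in both genotypes, at 12.9 and 23.2 against 4.15 and 2.17 in WT and at 32.9 to 47.5 against 2.32 and 2.14 in CebpbΔM. Btn1a1 was 1.20 and 6.35 in WT macrophages and 8.49 to 39.2 in CebpbΔM macrophages, with 4.05 to 6.54 in the 4 MEC libraries.

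**Figure D3:**
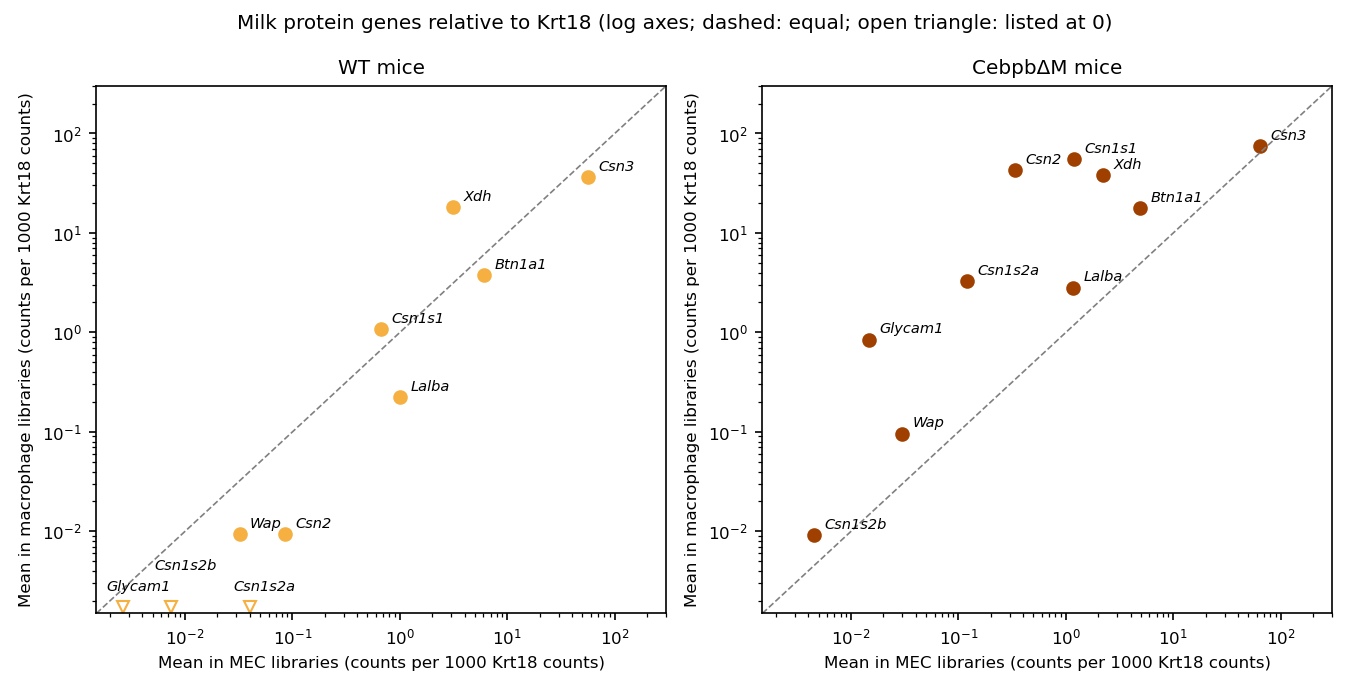
Group means of counts per 1000 Krt18 counts are plotted for MEC (x) against macrophage libraries (y) on log axes, WT on the left and CebpbΔM on the right, with a dashed line of equality and open triangles for members listed at 0 in macrophages. In WT mice Xdh and Csn1s1 lie above the line and the other 8 are drawn below it, beside 93.7% of all tested genes above it. Of these 8, Csn1s2a, Csn1s2b and Glycam1 had 0 counts in both WT macrophage libraries. A 0 allows up to 3 counts, so their side of the line was not settled. In CebpbΔM mice all 10 lie above it, beside 98.1% of genes, with Csn3 closest to the line (74.2 against 64.2).

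Marker sums of other cells differed between the same macrophage libraries, and their part in the values above was not tested. The 8 basal markers (Krt5, Krt14, Acta2 and others, all 8 detected in every library) summed to 3347, 2143, 2068 and 780 CPM in CebpbΔM macrophages 4 to 7 and to 1335 and 861 CPM in WT macrophages. The 8 lymphocyte markers summed to 19.2, 15.2, 13.6 and 7.61 CPM in CebpbΔM and to 6.70 and 6.57 CPM in WT, with 3 to 8 of them over 3 counts. Both lists thus ran from library 4 down to library 7, as Csn2 did. The summed level of the 8 hormone-sensing luminal markers ran the other way, at 914, 1060, 1649 and 2377 CPM in CebpbΔM macrophages 4 to 7, against 2235 and 2483 CPM in WT. Prlr alone made up much of that sum, at 492, 541, 1020 and 1463 CPM in CebpbΔM macrophages 4 to 7. The other markers of this list are not given per library here.

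The summed level of the 9 luminal progenitor or alveolar markers did not follow Csn2, at 5249, 3865, 4717 and 4838 CPM in CebpbΔM macrophages 4 to 7, where library 5, second for Csn2, was the lowest, and at 2817 and 3392 CPM in WT. Trf (mean 2608 CPM in CebpbΔM macrophages) makes up much of that sum. Within the list, Elf5, the alveolar transcription factor, was 115, 47.9, 30.4 and 21.9 CPM in CebpbΔM macrophages 4 to 7, in the order of Csn2. In WT it was 41.3 and 30.03 CPM, so the genotypes overlapped. Elf5 is a single gene of the list and does not stand for the others, whose values per library are not given here. Adipocyte markers (6 genes) summed to 501, 864, 1195 and 692 CPM and endothelial markers (4 genes) to 602, 1117, 1375 and 898 CPM in CebpbΔM macrophages 4 to 7, both highest in library 6, as Lalba and Glycam1 were. In WT macrophages they summed to 441 and 596 and to 879 and 1050 CPM. Fibroblast markers (6 genes) were 3315 to 7823 CPM in CebpbΔM and 6852 to 7276 CPM in WT macrophages, lowest in library 6. The 12 macrophage markers were all detected in the 6 macrophage libraries and summed to 11319 to 16809 CPM in CebpbΔM and 8793 to 10178 CPM in WT, lowest in library 4 among the CebpbΔM libraries. In MECs they summed to 33.9 to 48.0 CPM.

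Genes whose pattern was most like that of Csn2 were ranked by the root-mean-square difference of log2 CPM, each gene centred on its own mean over the 10 libraries, among 18285 genes. The members Csn1s2a (1.14) and Csn1s1 (1.35) came first and second. Next were Rnase13 (1.77), a ribonuclease A family gene, Lamp5 (1.93), a lysosome-associated membrane protein gene, Igha (2.03), the immunoglobulin A heavy chain constant gene of plasma cells, Bcl2l15 (2.05), a BCL2 family gene, and Ccdc187 (2.12). Rnase13 had 57 and 38 counts in CebpbΔM macrophages 4 and 5 and 0 in 6, 7 and both WT libraries. Igha had 224, 157, 0 and 3 counts in CebpbΔM macrophages 4 to 7 and 0 in WT. All 5 shared with Csn2 that they were high in libraries 4 and 5, which the 10 points have in common with any gene of those libraries. Of the other members, 5 ranked lower, with Btn1a1 235th, Glycam1 288th, Lalba 946th, Csn3 2623rd and Xdh 11053rd, and Wap and Csn1s2b were not ranked because they did not pass the filter on low counts.

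In epithelium, no milk protein gene passed the test of genotype. Of the 10 members 6 were tested among 15698 genes, and Csn1s2a, Csn1s2b, Wap and Glycam1 did not pass the filter. The 6 tested had a median log2 fold change of 0.21 beside -0.0078 over all genes tested, with 4 above 0 and 2 below. Csn2 passed the filter only through CebpbΔM libraries, with both WT libraries under 1 CPM, and no longer passed without either of them, so a higher value there was built in. With edgeR's quasi-likelihood test 0 of the 6 reached an adjusted p of 0.05, where 8 genes in all (0.051%) did. Of the members, 2 (Csn1s1 and Csn2) had an unadjusted p under 0.05, as had 851 of the 15698 genes. The median and the counts above 0 and under 0.05 include Csn2, so they are a description. The likelihood ratio test and DESeq2 also called 0 members, with 179 and 161 genes called in all.

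Of the 6 members tested in epithelium, Csn2 entered the fit only through CebpbΔM libraries. Its values are therefore a description and are not ranked against the other members. Csn2 had a log2 fold change of 2.0 ± 0.64 (SE), with 2.78 ± 2.43 CPM in CebpbΔM and 0.690 ± 0.0986 CPM in WT (SD, n = 2 each). It was not called in the edgeR quasi-likelihood test or in any alternative, and no result is read from its p-values. Both CebpbΔM libraries lay above both WT libraries, but library 1 gave most of the difference: without it the pooled counts were 28 against 36 in 1 and 2 libraries, a ratio of 1.62 (0.95 to 2.72). Csn1s1 had a log2 fold change of 0.89 ± 0.39 (adjusted p = 0.893, edgeR quasi-likelihood test) and its groups overlapped, since CebpbΔM library 3 (6.45 CPM) lay below WT library 1 (6.61 CPM), and leaving out a library gave 0.30 (without CebpbΔM library 1) to 1.32 (without WT library 1). Epcam, another luminal gene, had a log2 fold change of 0.82 ± 0.33 in epithelium (adjusted p = 0.766, edgeR), and Krt18 one of -0.05 ± 0.27.

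The remaining 4 had adjusted p-values of 0.9997 each in the same edgeR test. Csn3 had a log2 fold change of 0.24 ± 0.42 (SE) and Lalba one of 0.18 ± 0.28. Btn1a1 stood at -0.33 ± 0.25 and Xdh at -0.48 ± 0.27. Groups did not overlap for Lalba, with CebpbΔM above WT, where 15.4% of all tested genes did so, and for Xdh with CebpbΔM below WT, where 13.3% did. Those of Csn2 did not overlap either, which the filter had fixed. Without CebpbΔM library 1 the sign of the Csn3 difference turned (-0.84).

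**Figure D4:**
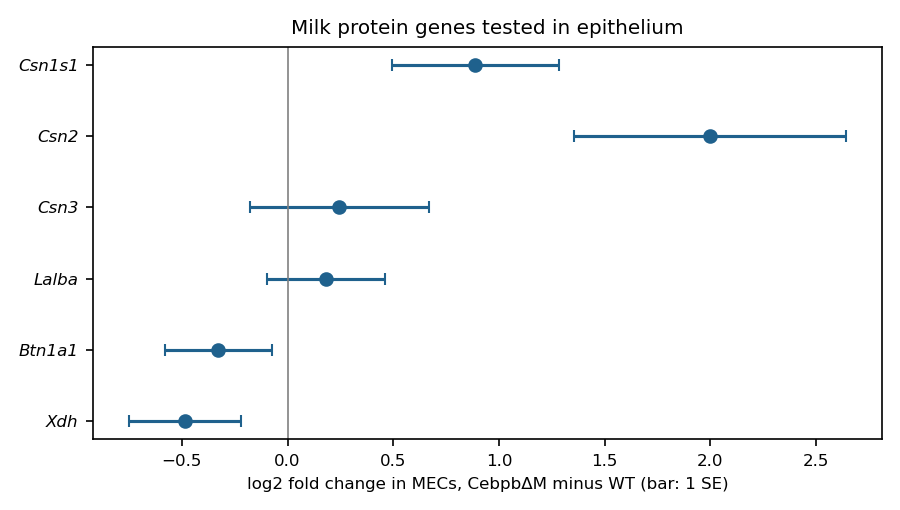
Points give the log2 fold change in MECs, CebpbΔM minus WT, of the 6 members that passed the filter, with bars of 1 SE (edgeR quasi-likelihood fit, 2 libraries per genotype). No member passed the adjusted p of 0.05. Csn2, at 2.0, entered the fit only through CebpbΔM libraries, with both WT libraries under 1 CPM, so a higher value was built in.

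Genes of the milk fat pathway did not pass the test in either cell type. Of 24 genes of fatty acid synthesis, lipid droplet coating and triglyceride assembly, all 24 were tested in both, 0 were called and 3 had an unadjusted p under 0.05 in each (edgeR), and the likelihood ratio test and DESeq2 called 0. Their median log2 fold change was -0.04 in MECs and -0.0016 in macrophages. By mean level the leading genes in MECs were Plin2, a lipid droplet coat protein (251 ± 84.0 CPM in CebpbΔM and 295 ± 46.4 in WT, SD, n = 2 each), Acly, which makes cytosolic acetyl-CoA (229 ± 66.8 and 268 ± 19.8), Elovl1, a fatty acid elongase (211 ± 24.1 and 219 ± 24.6), and Srebf1, a transcription factor of lipid synthesis (167 ± 31.4 and 167 ± 61.2). In macrophages they were Cd36, Plin2, Acly and Lpl, with log2 fold changes from -0.24 to 0.40.

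Of 10 genes for lactose synthesis and its sugar supply, 0 were called in either cell type by the quasi-likelihood test, the likelihood ratio test or DESeq2, with 0 in MECs and 2 in macrophages at an unadjusted p under 0.05 (edgeR). B4galt1, the catalytic subunit that pairs with alpha-lactalbumin, was 196 ± 24.6 CPM in CebpbΔM and 189 ± 14.7 CPM in WT MECs (SD, n = 2 each), and 202 ± 29.4 (n = 4) and 222 ± 20.5 (n = 2) in macrophages, so it did not share the pattern of Lalba. Slc2a1, the glucose transporter GLUT1, was 683 ± 142 and 585 ± 47.7 CPM in MECs and 128 ± 5.73 and 157 ± 2.54 in macrophages. Hk1, a hexokinase, and Pgm2, a phosphoglucomutase, completed the leading genes, with log2 fold changes of -0.16 and -0.12 in MECs and -0.51 and -0.17 in macrophages. The summed level of the list was 749 to 833 CPM in CebpbΔM and 915 to 950 CPM in WT macrophages.

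Of 20 other whey, defence and fat globule protein genes, 17 were tested in MECs and 16 in macrophages and 0 were called (edgeR), with 2 and 1 at an unadjusted p under 0.05. DESeq2 called 0 in MECs and 1 in macrophages, Trf, and the likelihood ratio test called 0 in both. Mfge8, lactadherin, was 2034 ± 825 CPM in CebpbΔM and 2274 ± 320 CPM in WT MECs (SD, n = 2 each). Trf, transferrin, was 1572 ± 416 and 1379 ± 188 CPM there, and 2608 ± 448 (n = 4) and 1426 ± 246 (n = 2) in macrophages. All 4 CebpbΔM macrophage libraries lay above WT for Trf, as for 9.67% of all genes tested in macrophages. Ltf, lactoferrin, and Wfdc18 had log2 fold changes of -0.05 and 0.09 in MECs. In macrophages the most abundant gene of the list was Lyz2, a lysozyme that is also a macrophage marker (log2 fold change 0.46 ± 0.23, adjusted p = 0.612, edgeR).

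Of 20 regulators of milk genes, 20 were tested in MECs and 19 in macrophages and 0 were called (edgeR), with 2 and 1 at an unadjusted p under 0.05. Prlr, the prolactin receptor, was 1944 ± 438 CPM in CebpbΔM and 1959 ± 379 CPM in WT MECs (SD, n = 2 each), and 879 ± 456 (n = 4) and 1461 ± 171 (n = 2) in macrophages. With the replicate block Prlr was called in macrophages. That fit compares the genotypes only within replicates 4 and 5, as CebpbΔM libraries 6 and 7 have no same-numbered WT library. Prlr was 492 and 541 CPM in CebpbΔM libraries 4 and 5 and 1020 and 1463 CPM in 6 and 7. In WT libraries 4 and 5 it was 1340 and 1582 CPM, so the genotypes overlapped. Stat5a, which carries the prolactin signal to casein promoters, was 197 ± 56.0 and 230 ± 136 CPM in MECs. In macrophages it was 154 ± 25.3 and 322 ± 58.8 CPM, with every CebpbΔM library below WT (log2 fold change -1.07 ± 0.20, adjusted p = 0.452 in the quasi-likelihood test, and called by the likelihood ratio test and DESeq2). Of all genes tested in macrophages, 9.08% lay below WT in this way. Per 1000 Krt18 counts Stat5a was 130 and 105 in WT and 90.0, 128, 81.7 and 101 in CebpbΔM macrophages 4 to 7, which overlapped. Cav1 and Gata3 completed the leading genes, with log2 fold changes of -0.16 and -0.37 in MECs and 0.10 and -0.56 in macrophages. Cebpd, chosen for mention after its values were seen, had the smallest p of the list in MECs (log2 fold change 1.19 ± 0.25, adjusted p = 0.132, edgeR) and was called by the likelihood ratio test and DESeq2, whose lists otherwise held none of these regulators there.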

How the data were processed

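RNA of MECs and F4/80-selected macrophages was sequenced for the study by BGI on the DNB-seq platform. A low-input Smart-Seq type kit was used, with 150-bp read pairs. Per the file headers and the study's methods, the deposited values are raw counts of read pairs per gene: Trimmomatic 0.33, HISAT2 2.1.0 against GRCm38, and featureCounts 1.6.2 on Ensembl release 100 genes, keeping pairs with both ends mapped and a mapping quality of at least 10, with the reverse-stranded setting. Pairs that fit several places are therefore not counted. Whether the kit keeps strand is not given in the sources used here.

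Groups came from the labels, and each experiment was fitted apart in edgeR 4.0.16 (R 4.3.3). Genes of at least 300 nt with more than 1 CPM in at least 2 libraries entered TMM scaling and the quasi-likelihood test of CebpbΔM against WT, with Benjamini-Hochberg adjustment over all of them at 0.05. Alternatives were the likelihood ratio test, which the study used, DESeq2 1.42.0, other scalings and filters, a replicate block and each library left out. Calls of the likelihood ratio test given here are from this rerun and are not the study's own. The study reported more macrophage genes and described Csn2 and Csn1s1 as enriched in CebpbΔM macrophages. Levels are TMM-scaled CPM. Ratios are counts per 1000 Krt18 counts of the same library, without a test. Intervals on pooled counts and shares are exact 95% intervals and cover counting error only. An exact permutation test over libraries could not go below p = 0.333 in MECs or 0.0667 in macrophages, so none was run. The fits were tested on simulated counts.

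The named genes are all 10 members, Krt18, Epcam, Cebpb, the genes of the casein cluster, up to 4 genes of each list in a cell type (called genes first, then the highest mean level) and the 5 non-members most like Csn2. Elf5, Cebpd, Tmem189 and the basal markers Krt5, Krt14 and Acta2 were named outside this rule. The members and lists were chosen with earlier results of these data known. MEC replicate 2 of either genotype was not analysed here. Protein sequences and the promoters of Csn3, Csn1s2b, Btn1a1 and Xdh were not used here.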

Additional observations from a re-analysis of the deposited data

Results flagged for a closer look

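For the 4 CebpbΔM macrophage libraries, the gap between the extreme library and its nearest neighbour was taken as a share of the range. Values were not put on a log scale, on which the shares could differ. The share exceeded 0.829, Dixon's 95% critical value for 4 samples, in 8 of 20 sets of values. These sets were the CPM and the Krt18 ratio of each of the 10 members. Dixon's value served as a mark and not as a test. The members were chosen on values of these libraries and both measures rest on the same counts, so the number of such sets is a description and is not to be read against the 1 in 20 that chance gives in groups chosen otherwise. Groups of 2 libraries could not be examined this way. Library 4 stood apart for 4 genes in CPM: the share was 0.847 for Csn1s1 (289 CPM, next 44.5), 0.930 for Csn2 (245, next 17.2), 0.841 for Csn1s2a (17.0, next 2.71) and 0.949 for Btn1a1 (61.4, next 17.4). In counts per 1000 Krt18 counts it stood apart for Csn2 at 0.917 (157, next 13.0) and Btn1a1 at 0.872 (39.2, next 12.4). Library 6 stood apart for Csn1s2b in both measures with a share of 1, which is fixed by 1 count against 0 in the other 3 libraries. No cause was tested.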

How the results depend on the processing

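Counts of called genes depended on the test. In MECs the quasi-likelihood test called 8 genes, the likelihood ratio test 179, DESeq2 161, no filter on low counts 38 and leaving out a library 2 to 337. In macrophages 0 genes became 138 by the likelihood ratio test and 201 by DESeq2. In no alternative without the replicate block was a member called. Csn3 in MECs went from 0.24 to -0.84 on the log2 scale without CebpbΔM library 1 and to 0.85 without library 3. Of the regulators, the likelihood ratio test and DESeq2 each called 1 in MECs (Cebpd) and 1 in macrophages (Stat5a), and leaving out a library called 0 to 1 in MECs. Of the whey and fat globule list, DESeq2 called 1 in macrophages (Trf) and leaving out a library 0 to 1 in MECs.

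The labels tie same-numbered libraries of the 2 genotypes by number alone. Whether they share a litter, day or batch is not given in the sources used here. Their deviations correlated at 0.11 in MECs, where 2 pairs fix a single value, and at 0.13 and -0.09 in macrophages. With the replicate block 205 genes were called in MECs, with 1 regulator (Cebpd), and 12 in macrophages, with 1 regulator (Prlr) and 1 member (Csn2), whose contrast chose the members. In macrophages this fit compares the genotypes only within replicates 4 and 5. CebpbΔM libraries 6 and 7 have no same-numbered WT library.

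Per library total in place of TMM, Csn1s1 in WT macrophages was 3.01 CPM instead of 2.96. With the length of the transcript with the longest coding sequence, chosen after the merged lengths were seen, ranks per kb became 6 for Csn2 and 7 for Wap in WT MECs, 4 for Csn1s1 and 5 for Xdh in CebpbΔM MECs, 4 for Csn1s1 and 5 for Lalba in WT macrophages, and 4 for Xdh and 5 for Btn1a1 in CebpbΔM macrophages, each pair having changed places. Depth limits Wap, Csn1s2b and Glycam1, which stayed near 3 counts in most libraries, and 2 libraries a group leave the spread poorly known.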
